A study of Rattus norvegicus with 12 samples.

Results

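The genes described here were counted in the muscle libraries of 1 set and were all but missing from the other. The genes were chosen by those raw counts, so the difference between the sets is a description and was not tested. A gene was taken when its counts summed to at least 100 over the 6 libraries of one set and to at most 10 over the 6 libraries of the other. Names beginning with Hox, LOC, RGD or AABR were left out. The rule gave 62 of 24648 rows, of which 16 were detected in set 2 only and 46 in set 1 only. The 46 rows carried 45 names, since Dnah5 stood on 2 rows. The 16 were 0.139% of the 11552 rows that reached 100 counts in set 2, and the 46 were 0.39% of the 11807 rows that did so in set 1. The word detected applies to the threshold and not to a true zero. Of the set 2 genes 2 had 0 counts in set 1, 3 had 1 to 3 and 11 had 4 to 10, and of the set 1 genes 15 had 0 counts in set 2, 12 had 1 to 3 and 19 had 4 to 10.

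The libraries came from skeletal muscle of male rats aged 540 days and formed 4 groups of 3. In restriction libraries the dams had received a diet with 6% protein through pregnancy and lactation, and in control libraries a control diet. Set 2 comprised restriction libraries 32, 33 and 35 and control libraries 23, 28 and 29, and set 1 comprised restriction libraries 12, 13 and 15 and control libraries 3, 8 and 9. The study took the soleus and the extensor digitorum longus, but the sources used here attach neither muscle to a library, so the sets keep their numbers. No litter or dam is named and the libraries are not stated to be separate animals, so p-values reflect library-to-library spread alone, part of which may be technical.

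Skeletal muscles differ in the fibres they hold. Slow fibres carry the myosin heavy chain Myh7 and work on oxidative metabolism, while the fastest rodent fibres carry Myh4 and rely more on glycolysis. A muscle sample also holds nerve endings, muscle spindles, vessels, connective tissue and blood cells, and a transcript found in one muscle may belong to any of them. In bulk RNA, fewer cells of a type and less RNA per cell cannot be told apart.

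Both sets carried muscle markers. On a scale of CPM, a count relative to its library's total, scaled by TMM, Myh4 lay between 1.1e4 and 4.75e4 in set 2 and between 4.97 and 396 in set 1, where control 3 held the 396. Myh7 lay between 702 and 2.59e3 CPM in set 2 and between 3.12e4 and 3.83e4 CPM in set 1. Total counts ran from 22829692 to 38313704 per library and summed to 171342959 in set 2 and 164716928 in set 1. Control 9 had the largest total and held the highest raw count for 22 of the 46 set 1 genes. In unscaled CPM, relative to the raw library total, it held the highest value for 12, while control 3 did so for 13 and restriction 13 for 12.

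The promoters of 8 genes are shown because these genes carry the pattern. Ush1c and Gnat3 had the largest summed count in their direction, Tmem132b and Zfp474 the largest with 0 counts in the other set, Mcidas and Hydin belong to the building of motile cilia, and Gsta5 and Cacna1e had the smallest diet p. The sequences are those of RefSeq on GRCr8, from 250 bases before to 50 bases after the annotated start, 5′ to 3′ along the gene. The build differs from the Rnor_6.0 named for the counts. Capitals mark GTTGCC or its reverse complement GGCAAC, the half-site that RFX factors, regulators of cilium genes, are known to bind.
The windows lay at chr1:105880033-105880332 on the minus strand for Ush1c and at chr12:36755172-36755471 on the minus strand for Tmem132b, both genes of set 2.
Ush1c: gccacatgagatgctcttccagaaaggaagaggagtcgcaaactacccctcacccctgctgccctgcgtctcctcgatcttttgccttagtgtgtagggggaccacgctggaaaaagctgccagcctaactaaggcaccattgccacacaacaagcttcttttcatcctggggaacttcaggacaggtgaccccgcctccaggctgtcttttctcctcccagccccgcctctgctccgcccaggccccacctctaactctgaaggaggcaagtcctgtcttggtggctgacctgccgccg
Tmem132b: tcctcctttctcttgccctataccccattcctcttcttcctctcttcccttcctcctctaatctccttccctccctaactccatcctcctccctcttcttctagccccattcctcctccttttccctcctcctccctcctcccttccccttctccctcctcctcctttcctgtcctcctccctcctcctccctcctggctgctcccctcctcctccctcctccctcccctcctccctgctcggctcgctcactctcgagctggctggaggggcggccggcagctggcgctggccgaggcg
The windows of the set 1 genes Gnat3, Zfp474, Mcidas and Hydin lay at chr4:18104283-18104582 on the minus strand, chr18:48239307-48239606 on the plus strand, chr2:46369767-46370066 on the plus strand and chr19:55146216-55146515 on the plus strand.
Gnat3: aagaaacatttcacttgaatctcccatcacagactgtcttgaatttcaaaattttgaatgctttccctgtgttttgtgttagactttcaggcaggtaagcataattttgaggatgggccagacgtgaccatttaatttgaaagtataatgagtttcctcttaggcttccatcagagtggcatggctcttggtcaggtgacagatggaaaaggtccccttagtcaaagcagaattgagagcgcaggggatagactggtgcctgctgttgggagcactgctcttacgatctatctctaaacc
Zfp474: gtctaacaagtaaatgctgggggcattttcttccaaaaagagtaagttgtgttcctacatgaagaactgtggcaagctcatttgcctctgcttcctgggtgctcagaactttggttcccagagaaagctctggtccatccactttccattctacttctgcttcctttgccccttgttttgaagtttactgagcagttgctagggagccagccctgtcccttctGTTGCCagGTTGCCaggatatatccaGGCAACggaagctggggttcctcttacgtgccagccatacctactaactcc
Mcidas: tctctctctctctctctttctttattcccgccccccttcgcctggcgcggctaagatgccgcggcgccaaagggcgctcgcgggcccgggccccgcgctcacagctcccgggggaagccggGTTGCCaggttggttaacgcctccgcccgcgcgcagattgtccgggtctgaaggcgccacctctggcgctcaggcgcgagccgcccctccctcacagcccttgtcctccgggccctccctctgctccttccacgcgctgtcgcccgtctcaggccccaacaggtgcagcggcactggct
Hydin: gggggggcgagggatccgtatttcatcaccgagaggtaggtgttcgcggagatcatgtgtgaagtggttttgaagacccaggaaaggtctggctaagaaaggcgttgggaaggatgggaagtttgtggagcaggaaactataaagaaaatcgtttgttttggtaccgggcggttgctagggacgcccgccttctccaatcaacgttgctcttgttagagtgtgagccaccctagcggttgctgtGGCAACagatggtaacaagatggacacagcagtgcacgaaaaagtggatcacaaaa
The windows of the set 1 genes Cacna1e and Gsta5 lay at chr13:69444761-69445060 on the minus strand and chr8:87988104-87988403 on the plus strand.
Cacna1e: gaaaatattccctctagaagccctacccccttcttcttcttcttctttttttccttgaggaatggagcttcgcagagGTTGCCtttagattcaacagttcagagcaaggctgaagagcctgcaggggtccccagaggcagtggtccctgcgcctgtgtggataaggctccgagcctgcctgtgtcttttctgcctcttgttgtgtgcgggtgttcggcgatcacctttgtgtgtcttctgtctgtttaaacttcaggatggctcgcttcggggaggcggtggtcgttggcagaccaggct
Gsta5: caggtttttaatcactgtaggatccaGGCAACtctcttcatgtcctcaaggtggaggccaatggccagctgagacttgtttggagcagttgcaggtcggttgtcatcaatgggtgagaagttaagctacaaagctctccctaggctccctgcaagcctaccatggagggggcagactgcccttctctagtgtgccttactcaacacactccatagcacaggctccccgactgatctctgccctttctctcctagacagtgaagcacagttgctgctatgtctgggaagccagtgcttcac

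The promoter table matched 13 of the 16 set 2 genes and 36 of the 46 set 1 genes. GTTGCC, read on both strands, was present in 2 of the 13 set 2 promoters (Coch and Amer1) and in 10 of the 36 set 1 promoters. It was present in 12.2% of all 27457 promoters and in 12.7% of the 10062 promoters of genes with 100 or more counts in either set. The 10 set 1 genes were Cenph, Mcidas, Morn2, Gsta5, Ropn1, Cacna1e, Aspn, Zfp474, Hydin and Arhgap36, and Zfp474 held 3 copies. The GC-box GGGCGG was present in 8 of 13 and 15 of 36 promoters, against 62.4% of the promoters of detected genes. TATAAA was present in 2 of 13 and 2 of 36, against 6.8%, and the E-box CANNTG in 8 of 13 and 25 of 36, against 62.6%. The MEF2 motif was present in 1 of 13 and 0 of 36, against 1.67%, and the MEF3 motif TCAGGTT in 0 of 13 and 1 of 36, against 3.2%. These motifs were searched on both strands, and matches of different motifs were allowed to overlap. The median GC content was 58.7% in the set 2 promoters and 56% in the set 1 promoters, against 61% for detected genes, and the median number of CpG dinucleotides was 9 and 6, against 21. A match is a description of the letters, and the motifs were chosen after the genes were known.

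**Figure D1:**
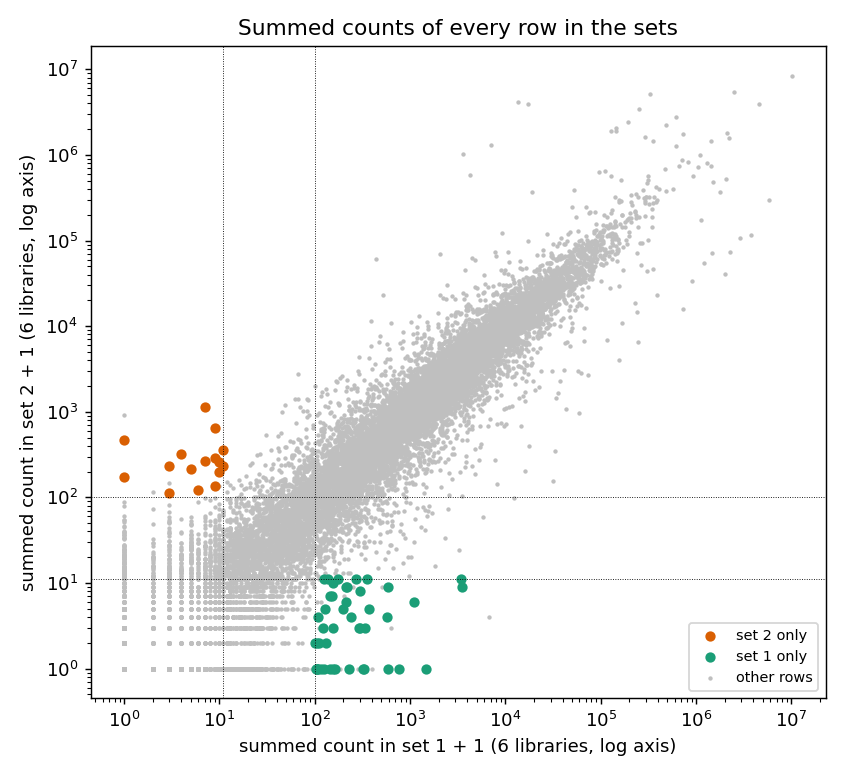
Each point is 1 of the 24648 rows, placed by its count summed over the 6 libraries of set 2 (vertical) and of set 1 (horizontal), with 1 added and on log axes. The dotted lines stand at the thresholds, with the 16 set 2 genes at the upper left and the 46 set 1 genes at the lower right, and 2 and 15 of them lie on the axis of 0 counts in the other set.

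Among the 16 genes of set 2 the largest summed count was that of Ush1c, which encodes harmonin, a PDZ scaffold of the hair bundle of inner-ear hair cells. Ush1c had 443, 145 and 141 counts in set 2 restriction libraries, against 128, 167 and 110 in set 2 controls. Set 1 restriction libraries held 0, 0 and 4 counts of it and set 1 controls 2, 0 and 0. Every set 2 library held at least 110 counts and every set 1 library at most 4, and restriction 32 alone held 39.1% of the sum.

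Foxl2, a forkhead transcription factor known from the ovary and the eyelid, had 91, 161 and 126 counts in set 2 restriction libraries, against 51, 103 and 107 in set 2 controls. In set 1 it had 0 counts in all 3 restriction libraries, and 8, 0 and 0 in controls 3, 8 and 9. All 8 counts of set 1 thus fell in control 3, the library that also held 396 CPM of Myh4, and whether the same cells carried both was not tested. Of 68 rows for regulators of limb patterning and homeodomain factors, Foxl2 was the 1 member, while 21 reached 100 counts in both sets and 18 stayed at 10 or fewer in each.

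Mstn encodes myostatin, a secreted inhibitor of muscle growth. It had 90, 41 and 102 counts in set 2 restriction libraries, against 2, 90 and 34 in set 2 controls. In set 1 it had 0 counts in the 3 restriction libraries, and 0, 6 and 4 in controls. The groups of set 2 overlapped, and control 23 with 2 counts was below the highest set 1 library. The other genes of the myostatin pathway were present in both sets: of 11 listed, 10 reached 100 counts in each. Acvr2b, the activin receptor that binds myostatin, had 559, 985 and 837 counts in set 2 restriction libraries and 319, 365 and 365 in set 2 controls, against 345, 445 and 396 in set 1 restriction libraries and 408, 275 and 436 in set 1 controls. Fst, the inhibitor follistatin, summed to 727 counts in set 2 and 1883 in set 1. This list was drawn up after the counts of Mstn had been seen.

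Edn2, a vasoconstrictor peptide of the endothelin family, had 12, 77 and 18 counts in set 2 restriction libraries, against 22, 5 and 0 in set 2 controls. Restriction 33 held 57.5% of its sum. Coch, which encodes cochlin of the inner-ear matrix, had 69, 34 and 68 counts in set 2 restriction libraries, against 6, 16 and 41 in set 2 controls.

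Tmem132b, a transmembrane protein, was 1 of the 2 set 2 genes with no count in set 1. It had 67, 100 and 159 counts in set 2 restriction libraries, against 31, 60 and 54 in set 2 controls, and 0 in all 6 libraries of set 1. In unscaled CPM it was at least 151-fold higher in set 2, taking 3 counts over the 6 set 1 libraries as the floor. Cpne6, a calcium-dependent membrane-binding protein known from the brain, was the other, with 36, 14 and 44 counts in set 2 restriction libraries and 10, 44 and 25 in set 2 controls, and its excess in set 2 was at least 55.4-fold. A count of 0 limits what these libraries could show and not whether the gene is transcribed.

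The remaining scaffolds, channels and enzymes summed to fewer counts. Fam83g, which binds casein kinase 1, had 67, 61 and 68 counts in set 2 restriction libraries, against 2, 86 and 33 in set 2 controls. Like Mstn it was lowest in control 23, with 2 counts for either gene. Slc26a9, an anion transporter known from stomach and airway, had 18, 117 and 93 counts in set 2 restriction libraries, against 39, 7 and 14 in set 2 controls. Trpm1, a cation channel of retinal bipolar cells, had 68, 58 and 8 counts in set 2 restriction libraries, against 33, 51 and 48 in set 2 controls. Amer1, a regulator of Wnt signalling, summed to 256 counts in set 2 and 9 in set 1. Gstt4, of the theta class of glutathione transferases, summed to 232 and 2. Pcdhga1, a gamma protocadherin that shares its last exons with neighbouring isoforms, summed to 199 and 9, and reads in those shared exons are uncertain. Tmem266, a membrane protein with a voltage sensor, summed to 215 and 4, Lrrc74b to 121 and 5 and Fam196b to 112 and 2.

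**Figure D2:**
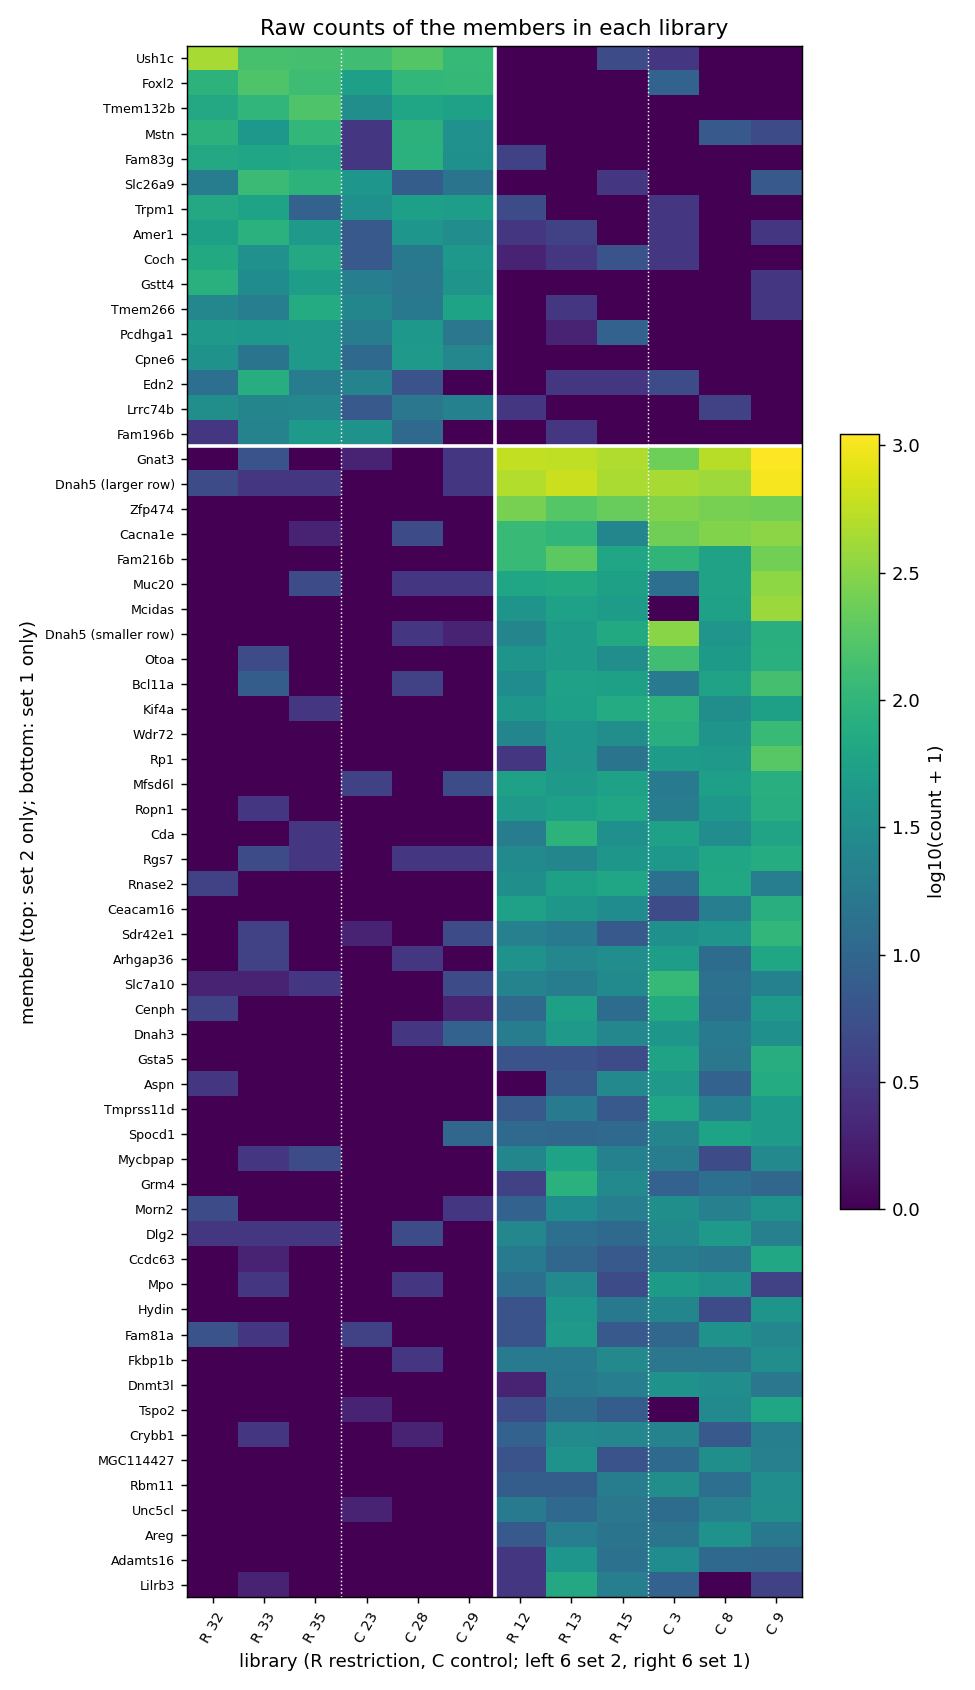
Each row is 1 of the 62 genes and each column 1 library, with set 2 in the left 6 columns and set 1 in the right 6, restriction (R) left of control (C) in each. The colour gives log10 of the raw count plus 1, and the bright blocks at the upper left and lower right are the sets that chose the genes, while single dark cells such as Mcidas in control 3 show uneven counts within a set.

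Among the 46 genes of set 1 the largest summed count was that of Gnat3, the alpha subunit of gustducin, the G protein of taste cells. Gnat3 had 0, 5 and 0 counts in set 2 restriction libraries and 1, 0 and 2 in set 2 controls. In set 1 it had 590, 574 and 480 counts in restriction libraries, against 235, 519 and 1109 in controls. The lowest set 1 library held 235 counts and the highest set 2 library 5. Its partners in taste cells did not meet the rule. Trpm5, the taste channel, had 0 counts in all of set 1 and 16 in set 2. Gng13, a gamma subunit, had 1 count in set 2 and 14 in set 1. Tas1r3, Plcb2 and Gnb3 summed to 78, 36 and 119 counts in set 2 and to 202, 87 and 252 in set 1. Of 9 taste signalling genes, a list drawn up after the counts were seen, Gnat3 was the 1 member. In unscaled CPM 7 of the 9, Gnat3 included, were higher in set 1, 6 of them at least 2-fold. The other 2, Trpm5 and Tas1r1, were higher in set 2. Gnat3 was chosen for this difference, and some rows stood near the floor, such as Tas1r2 with 0 counts in set 2 and 4 in set 1. Of all 13152 rows at or above the upper threshold in a set, 13.1% differed at least 2-fold toward set 1 and 8.17% toward set 2. Listed rows below that threshold lie outside that share, so the taste tally is a description.

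Of the set 1 genes, 8 rows encode proteins of cilia, flagella or their microtubules. Dnah5, an axonemal dynein heavy chain, summed to 10 counts in set 2 and 3414 in set 1 on its larger row. That row had 490, 624 and 456 counts in set 1 restriction libraries, against 441, 398 and 1005 in set 1 controls. The smaller row summed to 3 counts in set 2 and 577 in set 1, and control 3 held 320 of them. Reads that match both rows are uncertain, and the 2 rows were kept apart as the table gives them.

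Mcidas, a regulator that starts the programme of multiciliated cells, had 0 counts in all 6 libraries of set 2. It had 37, 54 and 47 counts in set 1 restriction libraries, against 0, 55 and 389 in set 1 controls 3, 8 and 9. Control 9 held 66.8% of the sum and control 3 none. Hydin, of the central pair of motile cilia, also had 0 counts in set 2, with 5, 39 and 16 in set 1 restriction libraries and 24, 4 and 37 in set 1 controls. Rp1, of the photoreceptor axoneme, had 0 counts in set 2, with 2, 38 and 14 in set 1 restriction libraries and 47, 44 and 177 in set 1 controls. Dnah3, an inner-arm dynein heavy chain, Ropn1, of the sperm fibrous sheath, and Ccdc63, known from sperm flagella, summed to 10, 2 and 1 counts in set 2 and to 175, 295 and 130 in set 1.

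Most motile cilium genes did not meet the rule. Of 52 rows on a list of them, drawn up after the counts were seen, 5 were detected in set 1 only (Mcidas, Dnah3, Hydin and both rows of Dnah5), 11 reached 100 counts in both sets and 34 stayed below 100 in each. Foxj1, the master regulator of motile cilia, summed to 4 counts in set 2 and 3 in set 1. Ccno, which multiciliated cells need to form their centrioles, had 0 counts in all 12 libraries. Tekt1, a filament protein of ciliary doublets, ran the other way, with 390 counts in set 2 and 48 in set 1. In unscaled CPM 32 of the 52 rows, members included, were higher in set 1, 23 of them at least 2-fold. Higher in set 2 were 15 rows, 6 of them at least 2-fold. The 5 members were chosen for this difference. Some rows stood near the floor, such as Rsph4a with 0 counts in set 2 and 2 in set 1. Of all 13152 rows with 100 counts in a set, 13.1% differed at least 2-fold toward set 1 and 8.17% toward set 2. The 34 listed rows below 100 counts lie outside that share, so the tally is a description.

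Zfp474, a zinc finger protein, had the largest sum of the 15 set 1 genes with no count in set 2. It had 262, 175 and 218 counts in set 1 restriction libraries, against 296, 265 and 247 in set 1 controls, and its unscaled CPM was at least 507-fold higher in set 1, on the same floor. It varied least of the 45 tested set 1 genes, with a coefficient of variation of 19.4% over the 6 libraries. Fam216b had 111, 189 and 61 counts in set 1 restriction libraries and 97, 56 and 248 in set 1 controls, at least 264-fold higher in that set. Mcidas was at least 202-fold, Wdr72 at least 114-fold and Rp1 at least 112-fold higher in set 1. Wdr72 is known for its part in enamel formation, and it summed to 329 counts in set 1.

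Channels and signalling proteins of nerve and muscle formed another group. Cacna1e encodes the pore of the R-type calcium channel and was the 1 member among 50 rows for ion channels and exchangers of muscle, 38 of which reached 100 counts in both sets. It had 0, 0 and 1 counts in set 2 restriction libraries and 0, 4 and 0 in set 2 controls. In set 1 it had 112, 99 and 24 counts in restriction libraries, against 245, 291 and 330 in controls. The lowest control exceeded the highest restriction library. Grm4, a metabotropic glutamate receptor, had 0 counts in set 2 and 145 in set 1, of which restriction 13 held 59.3%. Rgs7, which speeds the turn-off of G proteins, Dlg2, a synaptic scaffold, and Fkbp1b, which binds the ryanodine receptor, summed to 10, 10 and 2 counts in set 2 and to 271, 138 and 121 in set 1.

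Several set 1 genes are known from sense organs, matrix and surfaces. Otoa and Ceacam16, both of the acellular gels of the inner ear, summed to 4 and 0 counts in set 2 and to 371 and 227 in set 1. Muc20, a mucin, summed to 8 counts in set 2 and 586 in set 1, and control 9 held 56.7% of the set 1 sum. Crybb1, a lens crystallin, summed to 3 and 107, and Aspn, a small leucine-rich proteoglycan of matrix, to 2 and 156. Adamts16, a secreted metalloprotease, lay just inside the upper threshold with 0 and 102.

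Among enzymes and transporters, Gsta5, a glutathione transferase of the alpha class, had 0 counts in set 2. It had 5, 5 and 4 counts in set 1 restriction libraries, against 56, 15 and 77 in set 1 controls. The groups of set 1 did not overlap. The alpha class has close paralogs, so reads they share are uncertain. Cda, cytidine deaminase, summed to 2 counts in set 2 and 288 in set 1, and Slc7a10, a small neutral amino acid transporter, to 8 and 210. Tmprss11d, a serine protease of the airway surface, summed to 0 and 155.

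Proteins of blood cells were few and low. Mpo, the myeloperoxidase of neutrophils, summed to 4 counts in set 2 and 127 in set 1. Rnase2, an eosinophil ribonuclease with close paralogs, summed to 3 and 241, and Tspo2, known from red cell precursors, to 1 and 111. Lilrb3, a receptor of myeloid cells, summed to 1 and 100, and restriction 13 held 68% of its set 1 sum. Beside them, the summed level of 10 macrophage markers, of which all 10 reached 100 counts in both sets, lay between 64.5 and 123 unscaled CPM in set 2 restriction libraries and between 53.4 and 135 in set 2 controls, against 229 to 619 in set 1 restriction libraries and 269 to 447 in set 1 controls. All 10 were at least 2-fold higher in set 1. Of 12 adipocyte markers 2 were higher in set 2 and 8 were at least 2-fold higher in set 1, with Adipoq, the hormone adiponectin, at 386 counts in set 2 and 5389 in set 1, of which control 3 held 1918. Control 3 also held 109 of the 210 set 1 counts of Slc7a10. T lymphocyte markers rested on Cd4, which macrophages of the rat also carry, with 1297 of 1499 counts in set 2 and 4387 of 4729 in set 1. The T cell receptor parts Cd3e, Cd3d and Cd3g had 16, 27 and 19 counts in set 2 and 54, 13 and 24 in set 1. In unscaled CPM 7 of the 8 T lymphocyte rows were higher in set 1, 4 of them at least 2-fold. The 1 row higher in set 2 was Cd3d. Of 7 muscle spindle markers 5 were higher in set 1, of which 3 were at least 2-fold, and 2 were higher in set 2. Myh6, a heavy chain of slow and spindle fibres, summed to 6530 counts in set 2 and 244171 in set 1. Myh3 summed to 10997 and 50285, and Etv5 to 1532 and 3179. Ngfr, Etv4, Myh8 and Egr3 were within 2-fold between the sets. Their counts were 247, 980, 1769 and 471 in set 2 and 227, 1088, 1643 and 619 in set 1. Lists also ran the other way. Of 6 red blood cell rows 5 were higher in set 2 in unscaled CPM, 1 of them at least 2-fold. Their largest row, Hba1, had 87530 counts in set 2 and 75118 in set 1. Of 10 endothelial rows 9 were higher in set 2, 3 of them at least 2-fold. The part of these cells in the counts of the set 1 genes was not tested.

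In the nucleus, Kif4a, a chromosome-bound kinesin of mitosis, had 0, 0 and 2 counts in set 2 restriction libraries and 0 in each of the 3 set 2 controls. It had 40, 51 and 74 counts in set 1 restriction libraries, against 91, 31 and 53 in set 1 controls. It was the 1 member of 25 cell division genes. Of the 25 rows 6 were higher in set 2 and 19, Kif4a included, in set 1 in unscaled CPM. Among the 19 was Cdk1, the mitotic kinase, with 22 counts in set 2 and 108 in set 1. The largest rows ran the other way: Tpx2, a spindle assembly factor, summed to 7631 counts in set 2 and 480 in set 1, and Espl1, the separase, to 1907 and 258. Cenph, of the kinetochore, Bcl11a, a zinc finger repressor known from fetal haemoglobin silencing, and Dnmt3l, a cofactor of DNA methylation in germ cells, summed to 4, 10 and 0 counts in set 2 and to 199, 350 and 116 in set 1. The other 11 genes of set 1 were Areg, which encodes the EGF receptor ligand amphiregulin, Mfsd6l, Arhgap36, Sdr42e1, Spocd1, Mycbpap, Morn2, Fam81a, Rbm11, Unc5cl and MGC114427. They summed to between 0 (Areg, Rbm11 and MGC114427) and 10 (Fam81a) counts in set 2 and to between 104 (Areg and Unc5cl) and 301 (Mfsd6l) in set 1.

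No gene of the fibre apparatus met the rule. All 14 fast-fibre and all 12 slow-fibre rows reached 100 counts in both sets. In unscaled CPM all 14 fast-fibre rows were at least 2-fold higher in set 2, and all 12 slow-fibre rows in set 1. None of the 131 rows on 15 lists of cell type markers met the rule either. Over the kept names with 100 counts in a set, the solute carriers gave 2 members of 233 (Slc26a9 in set 2 and Slc7a10 in set 1), the Tmem names 2 of 175, both in set 2, and the collagens 0 of 39. All 12115 such names gave 16 members in set 2 and 46 in set 1. At so low a share, counts of 0 to 2 are no result about a family or cell type. The same holds for the lists of 68, 50 and 25 rows with 1 member each.

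The genes also had low and uneven counts, which the rule itself favours. A gene of low level meets the limit in the other set more easily. Of the set 2 genes 14 of 16 were counted in all 6 libraries of set 2, and 7 had 10 or more counts in each. Of the set 1 genes 42 of 46 were counted in all 6 libraries of set 1, and 23 had 10 or more counts in each. The sums had a median of 245 in set 2 and 187 in set 1. The coefficient of variation over the 6 libraries had a median of 58.3% for the set 2 genes and 61.1% for the set 1 genes that were tested. Level bears on this measure, so it was also taken between the quartiles of the members' mean CPM, from 1.14 to 1.87 in set 2 and from 0.731 to 1.82 in set 1. In that band it was 58.3% for 8 set 2 genes, against 42.3% for 824 tested rows, and 74.9% for 23 set 1 genes, against 45.3% for 1504 rows. The rule took the genes by their sums over these same libraries, so a gene raised by its highest library could pass. The comparison is thus a description, and whether these genes vary more apart from the rule was not tested. Grm4 at 134%, Mcidas at 124% and Edn2 at 118% varied most, and Zfp474 at 19.4%, the larger Dnah5 row at 24.5% and Foxl2 at 25.7% varied least.

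By the rule each gene had at most 10 counts in the other set, so few counts could cross. The 16 set 2 genes together had 39.6, 35.1 and 35.1 unscaled CPM in set 2 restriction libraries and 18.9, 27.9 and 20.8 in set 2 controls, against 0.34 to 0.92 unscaled CPM in the 6 set 1 libraries. Of their 90 counts in set 1, control 3 held 20 and restriction 15 held 21. The 46 set 1 genes had 0.437 to 1.47 unscaled CPM in the 6 set 2 libraries, against 90.1, 130 and 101 in set 1 restriction libraries and 111, 102 and 148 in set 1 controls. Their 165 counts in set 2 were spread over all 6 libraries, from 10 in control 23 to 43 in restriction 33.

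At the upper threshold of set 2 stood Fam196b with 112 counts, Lrrc74b with 121 and Edn2 with 134, and just outside it Edar with 98, Odf3l2 with 87 and Kcna1 with 87. At its lower threshold Mstn and Coch with 10 counts in set 1 and Amer1 with 9 were inside, and Ddx25 with 11, Klhl3 with 13 and Rasef with 15 outside. For set 1, Lilrb3 with 100, Adamts16 with 102 and Areg with 104 were inside, and Gpr35 with 94, Vsig8 with 92 and Slc29a4 with 88 outside. The larger Dnah5 row, Bcl11a and Rgs7 were inside with 10 counts in set 2, and Nup210l and Zmynd12 with 11 and Lst1 with 12 outside.

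Neighbours on the GRCr8 map were compared as well. For set 2 genes, 17 adjacent protein-coding rows reached 100 counts in a set, of which 2 (11.8%) differed at least 2-fold toward set 2 and 2 (11.8%) toward set 1 in unscaled CPM. Of all 13152 rows with 100 counts in a set, 8.17% differed as much toward set 2 and 13.1% toward set 1. For set 1 genes there were 45 such neighbours, of which 4 (8.89%) differed at least 2-fold toward set 2 and 12 (26.7%) toward set 1. Unc5cl and Tspo2 were neighbours of each other, with 1 count each in set 2, and 104 and 111 in set 1. Both are among the 12, as is RGD1564428, with 0 counts in set 2 and 287 in set 1. It met the thresholds and was left out by name alone. These rows lean toward set 1 by the rule itself, so the shares are a description.

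The effect of the maternal diet was tested inside the set that held each gene, a contrast that the rule did not use directly. The rule summed raw counts over both diets, so larger libraries weighed more. In set 2 totals were 29288433 to 31342247 in restriction and 22869995 to 30146567 in control libraries. In set 1 they were 22829692 to 26037169 and 26506707 to 38313704. Counts of members above or below 0 are thus a description, and the bearing of library size on them was not tested. The question is whether a restricted maternal diet changed these genes in the aged offspring. All 16 set 2 genes passed the low-count filter, and 45 of the 46 set 1 genes did, with Lilrb3 left out. No gene passed an adjusted p of 0.05 in edgeR's quasi-likelihood test over 14225 rows. Of all rows, 0% passed in set 2 and 0.00703% in set 1, which is 1 row. DESeq2 and limma-voom called 0 of the 16 and 0 of the 45 as well. At an unadjusted p under 0.05 edgeR had 0 of 16 set 2 genes, against 8.59% of all rows (4.4% higher and 4.19% lower in restriction). It had 2 of 45 set 1 genes, Gsta5 and Cacna1e, both lower in restriction, against 7.54% of all rows (3.35% higher and 4.2% lower). DESeq2 had 0 of 16 and 3 of 45 genes there, against 9.86% and 8.68% of all rows. Limma-voom had 2 of 16 (Coch and Tmem132b), against 8.17%, and 10 of 45, against 8.44%.

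Most set 2 genes had estimates above 0, and none was called. In set 2, 13 of 16 had a log2 fold change above 0, with a median of 0.62 for restriction minus control, against 48.5% of all rows above 0 and a median of -0.01. The smallest adjusted p among them was 0.62. The standard errors were wide, with a median of 0.84 against 0.28 over all rows. Without control 23, which had the lowest summed level of these genes, 13 of 16 were above 0 with a median of 0.59, while Mstn was at 0.19 in place of 0.72 and Fam83g at 0.01 in place of 0.54. In the same contrast 12 of 13 tested tenocyte and cartilage markers were above 0 (median 0.77), while 0 of 7 mast cell markers (median -1.12) and 0 of 5 red blood cell markers (median -1.79) were. The part of these cells in the members' estimates was not tested.

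Tmem132b had 2.25, 3.43 and 4.99 CPM in set 2 restriction libraries, against 1.66, 2.23 and 1.8 CPM in set 2 controls. Its log2 fold change was 0.90 ± 0.50 (SE, n = 3 each, edgeR adjusted p = 0.62). The groups did not overlap, which held for 2 of the 16 genes on the higher side (Tmem132b and Lrrc74b), against 7.01% of all rows, and for 0 on the lower side, against 5.72%. Coch had 2.32, 1.17 and 2.13 CPM in restriction libraries, against 0.322, 0.594 and 1.37 CPM in controls, with a log2 fold change of 1.28 ± 0.78 (edgeR adjusted p = 0.63). Slc26a9 had 0.604, 4.01 and 2.92 CPM in restriction libraries, against 2.09, 0.26 and 0.467 CPM in controls, with 1.44 ± 1.02 on the same scale. For Coch and Slc26a9 the groups overlapped. Amer1 stood at 1.11 ± 0.76, Ush1c at 0.54 ± 0.58, Foxl2 at 0.30 ± 0.66 and Mstn at 0.72 ± 0.93. The 3 genes below 0 were Trpm1 (-0.22 ± 0.90), Tmem266 (-0.01 ± 0.83) and Fam196b (-0.01 ± 1.38).

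In set 1, 16 of 45 tested genes had a log2 fold change above 0 and 29 below, with a median of -0.31, against 49.5% of all rows above 0 and a median of -0.00. Gsta5 had 0.198, 0.192 and 0.163 CPM in set 1 restriction libraries, against 1.88, 0.554 and 2.04 CPM in set 1 controls. Its log2 fold change was -2.99 ± 0.88 (SE, n = 3 each, edgeR unadjusted p = 0.0066, adjusted p = 0.53). Its 3 restriction libraries held 4 or 5 counts each.

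Cacna1e had 4.44, 3.8 and 0.977 CPM in set 1 restriction libraries, against 8.23, 10.7 and 8.73 CPM in set 1 controls. Its log2 fold change was -1.58 ± 0.56 (edgeR unadjusted p = 0.013, adjusted p = 0.54). The groups did not overlap for 6 genes on the lower side (Gsta5, Cacna1e, Rp1, Spocd1, Tmprss11d and Sdr42e1), against 9.6% of all rows, and for 1 on the higher side (Mycbpap), against 7.97%. Rp1 stood at -1.90 ± 0.92, Spocd1, known from transposon silencing in mouse germ cells, at -1.82 ± 1.01, and Tmprss11d at -1.79 ± 0.85. On the higher side, Grm4 stood at 2.24 ± 1.09 with overlapping groups, Mycbpap at 1.45 ± 0.90, Rnase2 at 0.83 ± 0.87 and Ropn1 at 0.60 ± 0.70. The genes with the largest sums lay near 0, with Gnat3 at 0.20 ± 0.43, the larger Dnah5 row at 0.14 ± 0.29 and Zfp474 at -0.01 ± 0.31.

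**Figure D3:**
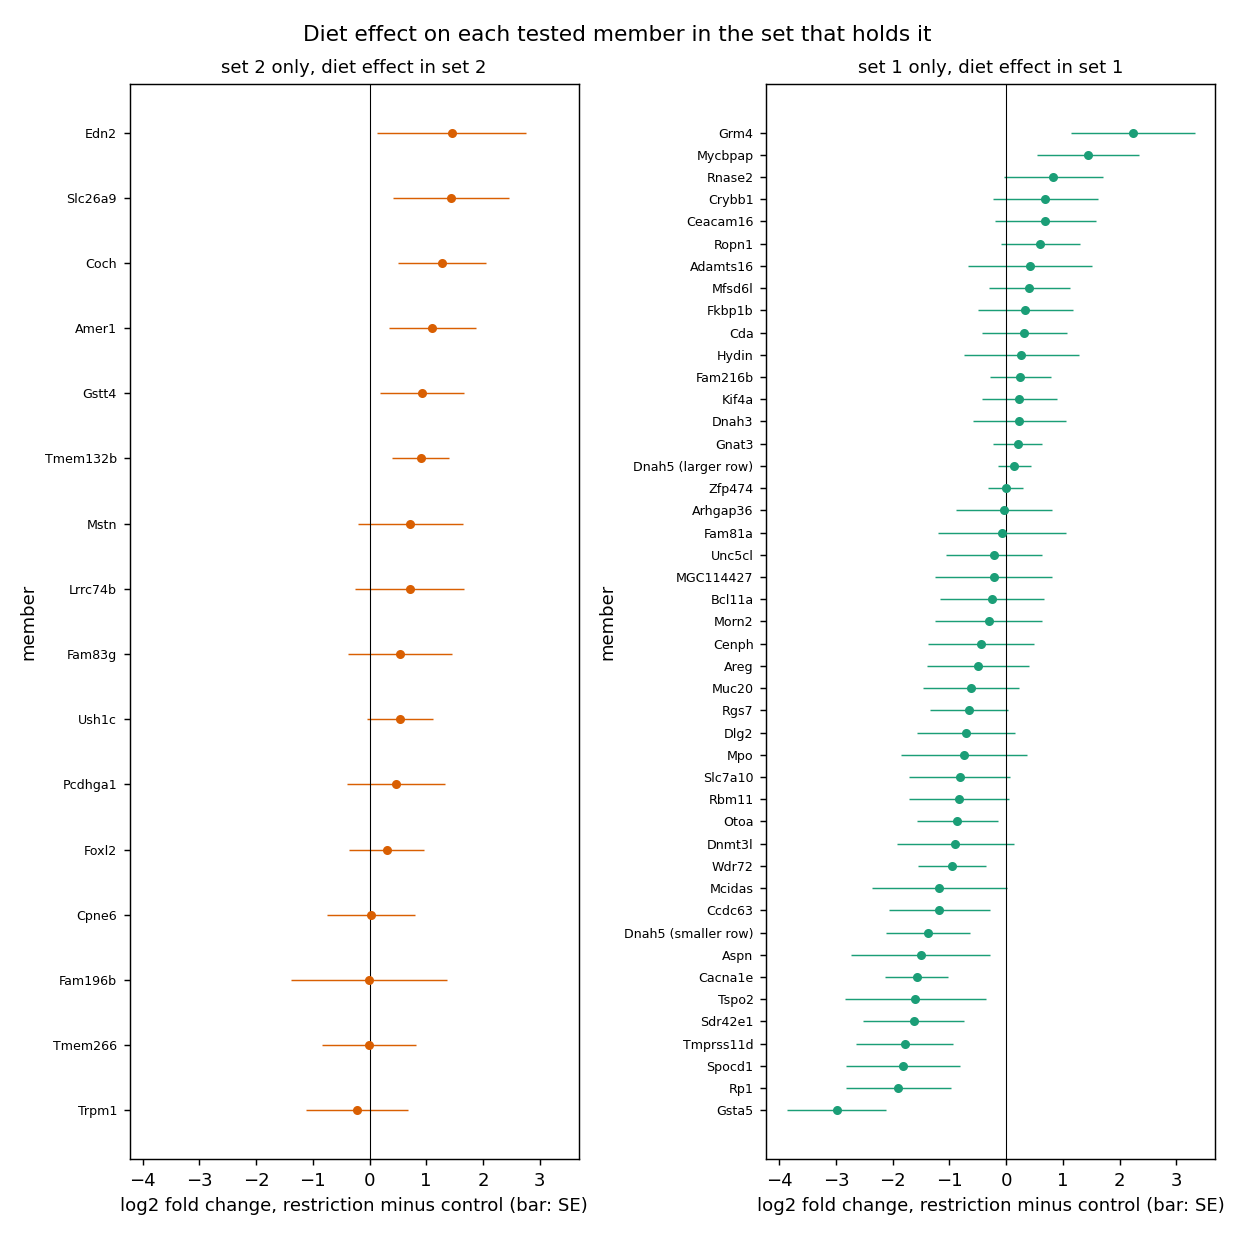
Points give the log2 fold change, restriction minus control, for the 16 set 2 genes in set 2 (left) and the 45 tested set 1 genes in set 1 (right), with bars of 1 standard error. In set 2 the points run from -0.22 to 1.45 and in set 1 from -2.99 to 2.24, and none passed the adjusted threshold.

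By role, the 4 groups of set 1 with 6 or more genes and a stated function had medians of -0.52 for the 8 cilium and flagellum rows (range -1.90 to 0.60), -0.27 for the 8 signalling and channel genes (-1.58 to 2.24), -0.10 for the 6 sensory, matrix and surface genes (-1.51 to 0.69) and -0.64 for the 6 nuclear genes (-1.82 to 0.23). The 5 enzymes and transporters had a median of -1.63, with 4 of 5 below 0. Without control 9 the set 1 genes had 22 above 0 and 24 below, and without control 3 they had 21 and 25. In set 1, 0 of 11 adipocyte markers (median -0.69) and 1 of 5 red blood cell markers (median -0.81) were above 0. Other lists ran the opposite way, with 9 of 10 macrophage markers above 0 (median 0.25) and 9 of 10 Schwann cell and myelin markers (median 0.45). So did 11 of 13 tenocyte and cartilage markers (median 0.39). The part of any of these cells in the members' estimates was not tested. No row on any of the 24 lists of pathways and cell markers passed the diet test in either set.

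**Figure D4:**
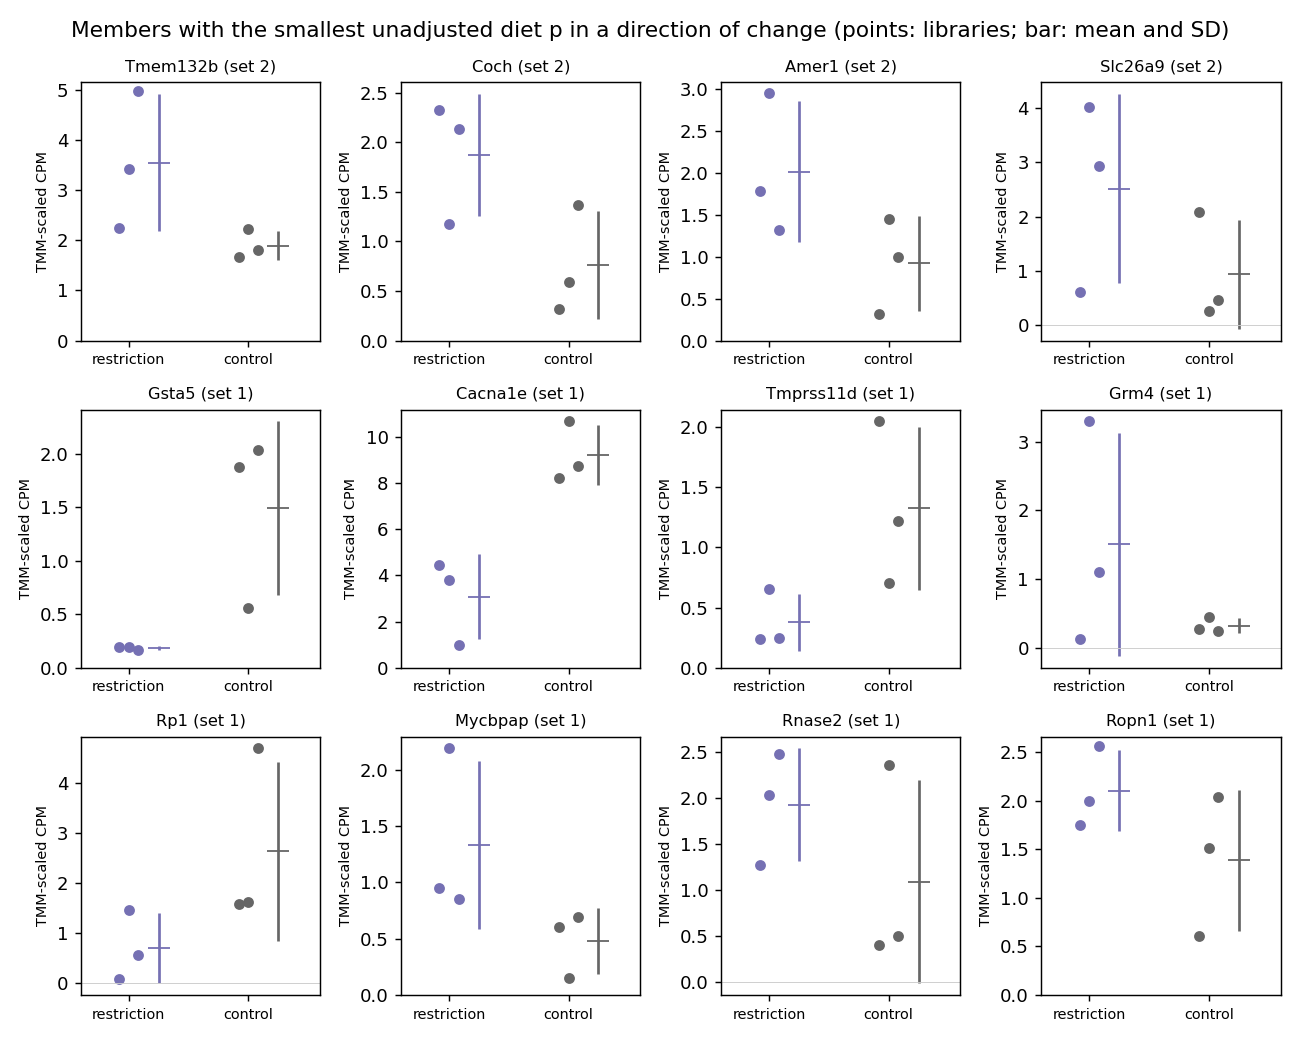
TMM-scaled CPM of 12 genes in the set that held them, with restriction left of control, points for the 3 libraries of each group and a bar for mean and SD. Shown are the 4 genes with the smallest unadjusted p in each direction of change, apart from the 3 set 2 genes between -0.22 and -0.01, and Gsta5, Cacna1e, Tmprss11d and Rp1 are lower, without overlap, in the restriction libraries.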

How the data were processed

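RNA-seq was measured in 12 skeletal muscle libraries of rats. Per the labels' protocols, RNA was taken up in Trizol and prepared with a TruSeq kit, whose reads do not keep strand, so antisense overlaps are uncertain. HISAT2, Trimmomatic, DESeq2 and featureCounts on Rnor_6.0 were used, per the submitters' processing notes, with versions, order and annotation not given in the sources used here. Whole-number counts for each gene were deposited and used as the authors gave them. A second deposited table, the counts divided by 1 constant per library, was not used. Counts of 2 stood in 5490 cells of the table and counts of 1 in 3764, and whether mates were counted apart is not given. Repeated names (144) were kept as separate rows. Of the 62 members, 60 matched a symbol in a RefSeq table (GRCr8), used for names, neighbours and promoters.

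Rows were kept with filterByExpr over the 4 groups (14225 rows), scaled by TMM, and fitted with edgeR 4.0.16 in R 4.3.3 (quasi-likelihood, 1 mean per group over all 12 libraries, Benjamini-Hochberg over all rows, threshold 0.05). The set difference chose the members and was not tested. Floors for genes at 0 are 3 counts over 6 libraries and cover counting error only. Values were named by rule: the members with the highest mean CPM, those on fixed lists, those at 0 in the other set, those with the smallest diet p in each direction, the most and least variable, and those at the thresholds. Other members named were chosen after their values were seen. The alternatives were DESeq2 1.42.0, limma-voom (limma 3.58.1), other scalings, filters and thresholds, 1 set's libraries alone, and leaving out each library. The fit was tested on simulated data. The members, lists and alternatives were chosen with earlier results of these data known. Lists of cilium, taste, myostatin and Usher genes and the motifs were added after members' values were seen.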

Additional observations from a re-analysis of the deposited data

How the results depend on the processing

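The number of genes in each direction followed the thresholds. The rule gave 16 in set 2 and 46 in set 1. With a sum of 50 or more it gave 42 and 95, and with 200 or more 11 and 22. With 0 counts in the other set it gave 2 and 15, with 5 or fewer 7 and 32, and with 20 or fewer 26 and 80. At 50 and 5 counts, restriction libraries alone gave 39 in set 2 and 51 in set 1, and control libraries alone 16 and 85. Leaving out each library gave 13 (without restriction 33) to 21 (without control 9) in set 2, and 32 (without control 9) to 58 (without restriction 35) in set 1.

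No alternative called any member for diet, leaving out each library included (0 to 0 in both sets). Rows called over the whole table in set 2 were 0, against 40 with DESeq2, 3 with no filter and 5 without controls 3 and 23, an alternative added after seeing the data. In set 1 it was 1 row, against 38 with DESeq2, 3 with limma-voom, 6 with no filter, 5 with that set's libraries alone and 126 without controls 3 and 23. Leaving out each library gave 0 to 4 in set 2 and 1 to 22 in set 1, both highest without control 23. The cause was not tested. Members above 0 were 13 to 14 in set 2 and 14 to 22 in set 1 over libraries left out. Keeping rows with a mean CPM of 1 or more left fewer genes, with 4 of 4 and 4 of 11 above 0.

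Members near 0 changed sign. Fam196b was at 1.30 with limma-voom, 0.23 with library size alone, 0.52 without restriction 32, and 1.96 without control 23, with or without control 3. Tmem266 was at 0.10 with library size alone, 0.21 without restriction 32, 0.30 without restriction 33, 0.43 without control 29 and 0.00 without control 3. Trpm1 was at 0.29 without restriction 35. Over libraries left out, Fam196b lay between -0.82 and 1.96, Tmem266 between -0.76 and 0.43 and Trpm1 between -0.65 and 0.29. Gsta5 stayed between -3.38 and -2.69 and Cacna1e between -1.95 and -1.16 over libraries left out. Adjusted p lay between 0.19 and 0.97 for both over all alternatives.

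No paired analysis was possible because the title numbers are not shared between the groups of a set. All 6 numbers of set 1 have a number 20 higher in the same diet group of set 2, and whether such libraries share an animal is not stated. The diet contrasts lie within a set, and the fits on 1 set's libraries, which use no library of the other, called 0 members. With 3 libraries a group and few counts a gene, standard errors near 0.84 to 0.88 limit what diet effect could be seen.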

Other observations

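Names left out by the rule met the same thresholds in 19 rows, 5 in set 2 and 14 in set 1. LOC102554096 had 0, 2 and 0 counts in set 2 restriction libraries and 1, 0 and 0 in set 2 controls. It had 869, 1224 and 435 counts in set 1 restriction libraries, against 1524, 718 and 2031 in set 1 controls, a larger sum than that of any gene the rule kept. LOC100909585 had 333, 0 and 304 counts in set 2 restriction libraries and 0, 32 and 237 in set 2 controls, and 0 in all of set 1. Its counts of 0 stood in 2 of the 6 set 2 libraries. Hoxa9, a positional regulator, had 47, 23 and 0 counts in set 2 restriction libraries and 16, 20 and 38 in set 2 controls, with 8 counts in all of set 1.

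Outside the rule, Rfx2, a factor that binds the GTTGCC half-site in cilium genes, had 151, 130 and 78 counts in set 2 restriction libraries and 36, 84 and 50 in set 2 controls. It had 284, 618 and 479 counts in set 1 restriction libraries and 858, 298 and 576 in set 1 controls. The lowest set 1 library lay above the highest set 2 library. Rfx2 and the motif were looked at after the cilium genes were seen, and no link between them was tested.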
